A study of Mus musculus with 24 samples.

Results

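Integrins, laminins and adhesive glycoproteins are the receptors and extracellular ligands by which cells hold on to basement membranes, to connective tissue and to one another. The 44 genes described here were chosen by symbol alone, out of 56691 genes in the count table (21919 of them protein-coding). They comprise every protein-coding gene named as an integrin alpha or beta subunit, as an alpha, beta or gamma chain of laminin, as 1 of the 4 tenascins (Tnc, Tnn, Tnr and Tnxb), or as fibronectin (Fn1), vitronectin (Vtn) or periostin (Postn). Their RNA was measured in 24 sequencing libraries from a surgical mouse model of endometriosis, a disease in which endometrium-like tissue grows outside the uterus.

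There were 6 groups of 4 libraries: the uterus of sham-operated mice (sham), the uterus of operated mice that carried endometriosis (eutopic) and the ectopic tissue of such mice (lesion), each taken 1 month and 3 months after surgery. Surgery was done at 8 weeks of age, and tissue was taken on day 3.5 of pregnancy after mating, so mice of the later groups were also older. The background was mixed C57BL/6 and SV129. The sample labels give the genotype as Rosa26mTmG/+ for sham and eutopic libraries and as Pgrcre/+Rosa26mTmG/+ for lesions. All groups therefore carry the mTmG reporter, a membrane fluorophore switched by Cre recombinase, and Pgrcre places Cre under the progesterone receptor gene. The design text gives Pgrcre/+Rosa26mTmG/+ for the mice with endometriosis as a whole, so the genotype of the eutopic libraries is not settled, and by the sample labels tissue and genotype cannot be told apart. Sham mice and all mice at 1 month were labelled fertile, and mice with endometriosis at 3 months subfertile. How lesions were induced is not given in the sources used here. The protocol speaks of endometrium and the tissue label of uterus, and markers of smooth muscle were present in every library as well. No label ties a library to an animal, so p-values measure the spread between these libraries.

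Each integrin is a pair of 1 alpha and 1 beta subunit that spans the cell membrane, and the pair decides what is bound. Subunits such as Itgb2 and Itgb7 are carried by leukocytes and bind counter-receptors on endothelium and epithelium, whereas Itgb1 pairs with many alpha subunits to bind collagens, laminins and fibronectin. Laminins are trimers of an alpha, a beta and a gamma chain that polymerize into the sheet of the basement membrane. Tenascin-C and periostin are deposited in healing and remodelling tissue, and fibronectin is a general scaffold of the interstitial matrix. In the uterus, integrins of the luminal epithelium and their ligands have long been studied as part of the attachment of the embryo, and in endometriosis as part of the attachment of displaced tissue.

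Total counts per library ran from 45133642 to 59407134. Levels are given as CPM, the read counts scaled to a common library total with TMM factors, and differences are log2 fold changes with their standard error (SE). A gene is called changed where the Benjamini-Hochberg adjusted p of edgeR's quasi-likelihood test was under 0.05. Summed markers of other tissues set 3 lesion libraries apart. Lesion library 1 at 3 months held 22990.4 CPM of 6 ovarian steroid cell markers, against 27.2 to 271 CPM in the other lesions of that time and 11.8 to 15.8 CPM in eutopic uterus. Lesion library 2 at 3 months held 42984 CPM of 8 skeletal muscle markers, against 99.3 to 167 CPM in eutopic uterus. Lesions 3 and 4 of that time also held more of these than eutopic uterus, at 13601 and 7132 CPM. Library 2 held 47.7 CPM of 9 epithelial markers, against 1043 to 1288 CPM in eutopic uterus. Lesion library 2 at 1 month held 83107 CPM of 7 liver and pancreas markers, against 4.44 to 6.39 CPM in eutopic uterus. Markers of the labelled tissue, uterus (Pgr, Esr1, Hoxa10, Hoxa11 and Hand2), summed to 810.0 to 1301 CPM in lesions at 1 month and to 143, 144, 802 and 418 CPM in lesions 1 to 4 at 3 months, against 1347 to 1723 and 1398 to 1646 CPM in eutopic uterus. Some markers were at 0 in some libraries: Hsd3b1 and Cyp17a1 of the ovarian list, Myh1, Myh2 and Myh4 of the muscle list, and 6 of the 7 of the liver and pancreas list. Results that rest on the 3 lesions set apart are given with and without them. Lesions 3 and 4 at 3 months, which also held skeletal muscle markers, stay in those fits. In whole tissue, fewer cells of a type and less RNA per cell cannot be told apart.

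Integrin genes of leukocytes and several receptors for matrix glycoproteins, together with tenascin-C, were higher in lesions than in eutopic uterus at both times, and 3 of the 11 laminin chains were called lower and 1 higher at 3 months. At 1 month 15 of the 44 genes were called higher and none lower (34.1% and 0%), where 12.0% of all 22249 genes tested were called higher and 8.76% lower. All 15 had 4 lesions above the 4 eutopic libraries. Separation of that kind was found for 22 of the 44 genes upward and 2 downward, against 17.5% and 14.1% of all genes. At 3 months 16 genes were called higher and 5 lower (36.4% and 11.4%), where 23.4% and 17.1% of all genes were. At that time 5 of the 44 genes had all lesions above all eutopic libraries and 2 had all below, all 7 of them called, against 10.1% and 13.8% of all genes. The median log2 fold change of the 44 genes was 0.56 at 1 month and 0.32 at 3 months, beside -0.01 and 0.04 over all genes tested. The 12 genes called higher at both times were Itga4, Itgal, Itgam, Itgax, Itgb2, Itgb7, Itga2, Itga8, Itga9, Itgav, Itgb5 and Tnc.

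Without the 3 lesions set apart, 18 genes were called higher and 2 lower at 1 month, and 20 higher and 5 lower at 3 months. A fit of the compared groups alone gave 21 higher and 4 lower at 1 month, but 8 higher and none lower at 3 months. The 8 were Itgax, Itgb2, Itga2, Itga11, Itgav, Itgb5, Lama1 and Tnc. The shares of all genes called in these alternative fits are not given here, so the counts cannot be set against them.

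**Figure D1:**
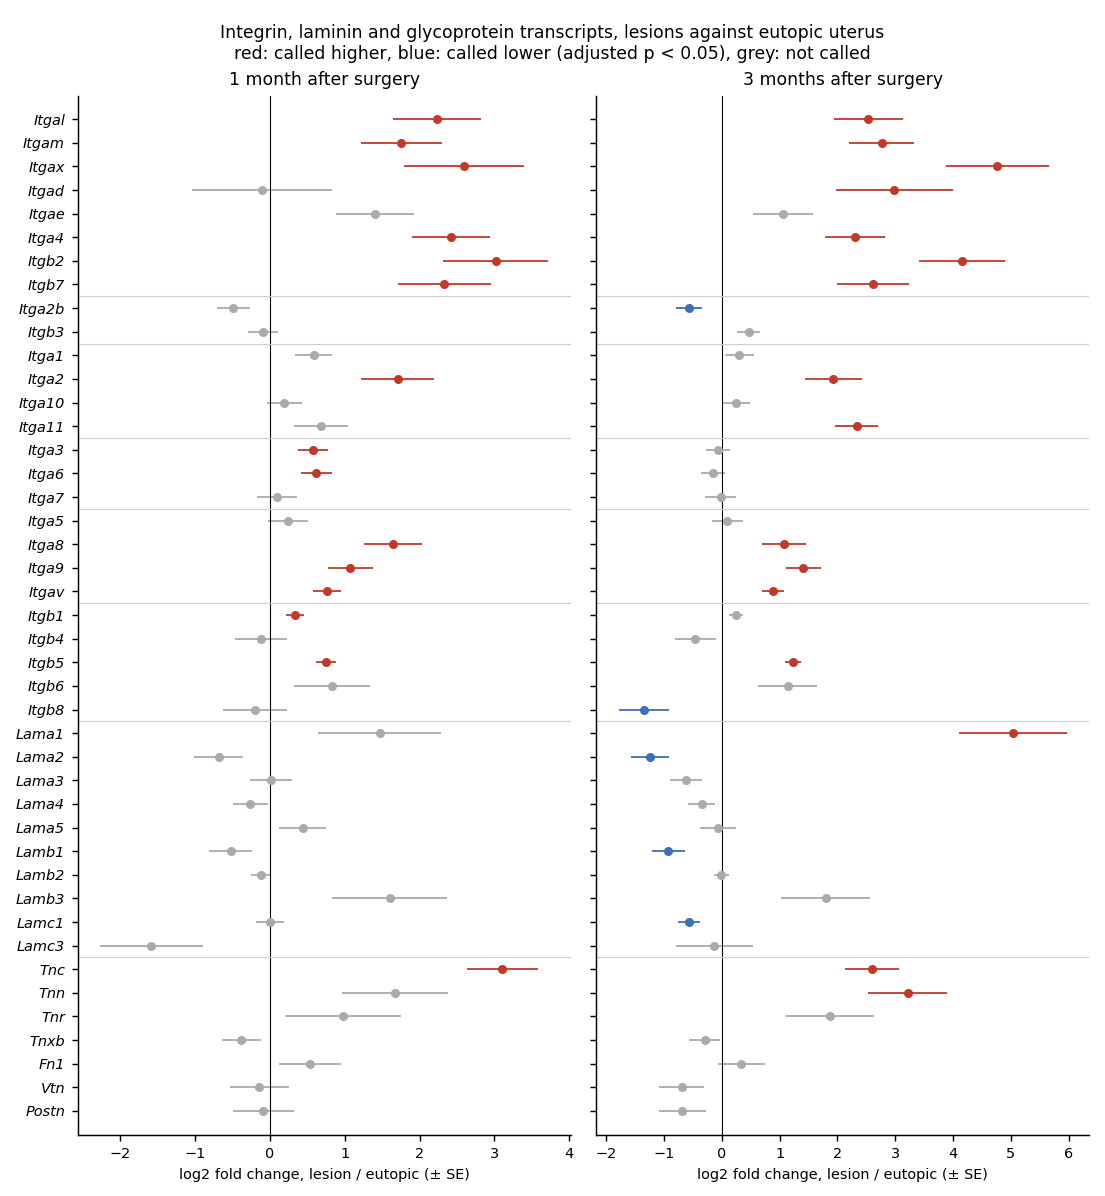
Log2 fold change (x axis) of 43 genes (rows, grouped by role) in lesions against eutopic uterus, 1 month (left) and 3 months (right) after surgery, with 4 libraries per group. Points are estimates, bars are ± SE, and colour gives the call: 15 genes are red at 1 month, and 16 red and 5 blue at 3 months.

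Of the 8 roles into which the genes were grouped, the leukocyte integrins had the largest median difference at both times. Of these 8 genes, 6 were called higher at 1 month and 7 at 3 months, where 12.0% and 23.4% of all genes were. None was called lower, and their median log2 fold changes were 2.28 and 2.69. Itgb2 encodes the beta subunit shared by the classical leukocyte integrins. At 1 month it measured 30.1, 31.8, 26.0 and 28.0 CPM in the 4 eutopic libraries and 124, 369, 141 and 306 CPM in the 4 lesions. Every lesion lay above every eutopic library, and the log2 fold change was 3.02 ± 0.70 (SE, adjusted p = 0.00634). At 3 months the values were 22.9, 24.6, 22.0 and 39.7 CPM in eutopic uterus and 11.1, 1003, 277 and 653 CPM in lesions. Here 3 lesions lay far above the eutopic range and lesion library 1 below it, with a log2 fold change of 4.15 ± 0.74 (adjusted p = 0.000239), or 3.53 without lesion library 2.

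Itgal, Itgam, Itgax and Itgad encode the alpha subunits that pair with Itgb2. Itgal, the partner used by lymphocytes to bind Icam1, measured 32.9, 23.1, 22.8 and 22.5 CPM in eutopic uterus and 75.9, 170.5, 78.2 and 151 CPM in lesions at 1 month, and 17.8, 18.8, 20.4 and 35.5 CPM in eutopic uterus and 7.08, 193, 92.6 and 246 CPM in lesions at 3 months. The log2 fold changes were 2.23 ± 0.59 (adjusted p = 0.0127) and 2.54 ± 0.60 (adjusted p = 0.00228), and at 3 months lesion library 1 lay below the eutopic range and the other 3 lesions above it. Itgam, the complement receptor subunit of myeloid cells, measured 9.54, 12.6, 8.91 and 10.5 CPM in eutopic uterus and 22.8, 53.5, 24.8 and 39.0 CPM in lesions at 1 month. At 3 months it measured 9.31, 10.5, 6.12 and 10.8 CPM in eutopic uterus and 3.13, 96.4, 64.7 and 87.0 CPM in lesions. It was called higher at both times, by 1.75 ± 0.54 (adjusted p = 0.0276) and 2.77 ± 0.56 (adjusted p = 0.000709). The call at 1 month was lost in 6 of the 8 fits without 1 library, those without any 1 eutopic library, lesion 2 or lesion 4, with adjusted p-values between 0.0546 and 0.0917.

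Itgax, carried by dendritic cells and many macrophages, measured 20.2, 19.4, 21.2 and 18.2 CPM in eutopic uterus and 51.4, 178, 84.5 and 165 CPM in lesions at 1 month, and 8.10, 10.9, 14.4 and 23.1 CPM in eutopic uterus and 4.19, 1018, 149.7 and 371 CPM in lesions at 3 months. Lesion library 2 at 3 months, which held the largest sum of skeletal muscle markers, stood highest, and lesion library 1 lowest. The log2 fold changes were 2.60 ± 0.80 (adjusted p = 0.0276) and 4.77 ± 0.89 (adjusted p = 0.00034), the latter 3.64 without lesion library 2. The call at 1 month was lost in the same 6 fits as that of Itgam, with adjusted p-values between 0.0514 and 0.0722. Itgad, carried by a subset of macrophages, measured 1.60, 1.42, 1.67 and 0.922 CPM in eutopic uterus and 0.806, 1.95, 1.25 and 1.23 CPM in lesions at 1 month, and 0.135, 0.581, 0.695 and 0.942 CPM in eutopic uterus and 0.0936, 17.3, 0.656 and 0.740 CPM in lesions at 3 months. Its call at 3 months (2.98 ± 1.01, adjusted p = 0.0232) rested on lesion library 2: the other 3 lesions lay within or below the eutopic range, and without library 2 the log2 fold change was -0.25 (adjusted p = 0.803).

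Itga4, Itgb7 and Itgae form the integrins by which lymphocytes home to mucosal tissue and stay in epithelium. Itga4, which binds Vcam1 and fibronectin, measured 46.6, 28.8, 19.9 and 23.6 CPM in eutopic uterus and 117, 198, 102 and 218 CPM in lesions at 1 month, and 35.3, 23.1, 32.7 and 34.3 CPM in eutopic uterus and 13.3, 197, 139.8 and 272 CPM in lesions at 3 months. The log2 fold changes of 2.42 ± 0.52 (adjusted p = 0.00439) and 2.31 ± 0.52 (adjusted p = 0.00162) were alike in size, and lesion library 1 at 3 months again lay below the eutopic range. Itgb7, the partner of Itga4 and Itgae, measured 13.0, 13.4, 15.2 and 12.9 CPM in eutopic uterus and 41.8, 98.6, 40.4 and 92.5 CPM in lesions at 1 month. At 3 months its values were 12.7, 12.0, 10.6 and 20.6 CPM in eutopic uterus and 3.89, 86.9, 59.0 and 192 CPM in lesions. It was called higher by 2.33 ± 0.62 (adjusted p = 0.0133) and 2.61 ± 0.63 (adjusted p = 0.00267), the latter 1.84 without lesion library 4. Itgae, which binds E-cadherin on epithelial cells, was not called at either time: it ran from 4.83 to 8.12 CPM in eutopic uterus and from 10.6 to 33.1 CPM in lesions at 1 month, without overlap (1.41 ± 0.52, adjusted p = 0.0594), and from 5.49 to 10.6 CPM and 1.10 to 24 CPM at 3 months (1.07 ± 0.52, adjusted p = 0.106).

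Markers of leukocytes differed in the same direction. The 8 general leukocyte markers, with none at 0, summed to 372 to 426 CPM in eutopic uterus and 1012 to 2228 CPM in lesions at 1 month, and to 312 to 519 CPM in eutopic uterus and 136, 2771, 1709 and 3437 CPM in lesions 1 to 4 at 3 months, and 8 of 8 were called higher at each time. Likewise 8 of 8 macrophage markers and 7 of 7 tested T cell markers were called higher at each time, and 5 of 7 neutrophil markers, with 1 more called lower at 3 months. Over all genes 12.0% were called higher at 1 month and 23.4% at 3 months. Lesion library 1 at 3 months held fewer leukocyte markers than any eutopic library, and in it all 8 leukocyte integrin genes lay below every eutopic library. In lesion library 2 at 3 months 8 of the 8 lay above every eutopic library, and in lesions 3 and 4 it was 7 of the 8, all but Itgad. Of all genes tested, 39.0% lay below every eutopic library in lesion 1, and 36.7%, 32.7% and 35.3% above in lesions 2, 3 and 4. The part of leukocyte number in these values was not tested. Without lesions 1 and 2, 7 of the 8 genes were called higher at 3 months, Itgam by 3.01 (adjusted p = 4.87e-07) and Itgb2 by 4.05 (adjusted p = 7.16e-07). The fit of the compared groups alone called only Itgb2 and Itgax at 3 months, and edgeR's adjusted p there was 0.0752 for Itgal, 0.0543 for Itgam, 0.0623 for Itga4 and 0.0792 for Itgb7.

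**Figure D2:**
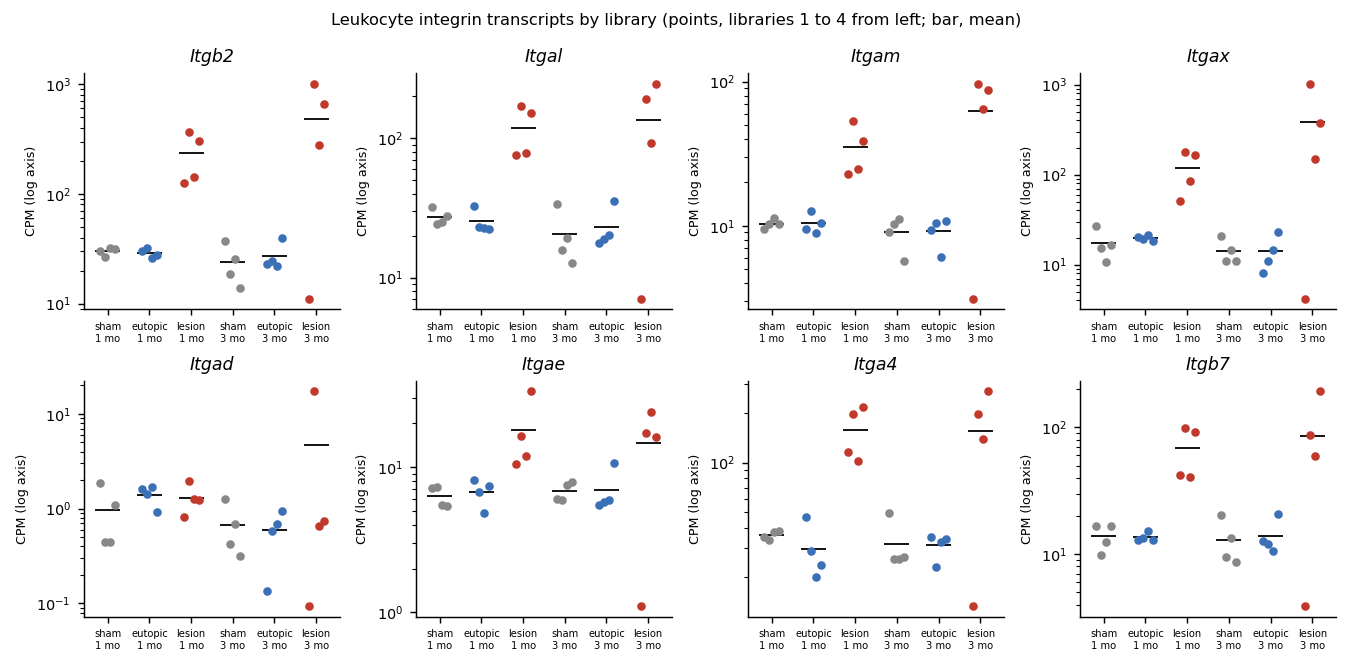
CPM on a log axis (y) of the 8 leukocyte integrin genes in each library of the 6 groups (x). Points are libraries 1 to 4 from left to right and bars are group means: lesions at 1 month lie above eutopic uterus in 7 of the 8 panels, all but Itgad, and at 3 months lesion library 1 is the lowest point in all 8.

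Set against the summed leukocyte markers of the same library, Itgb2 was the 1 leukocyte integrin gene whose lesions lay above eutopic uterus at both times, where 1.99% of all genes at 1 month and 1.6% at 3 months did so. Itgb2 amounted to 7.08, 7.71, 6.98 and 7.07% of the marker sum in eutopic libraries and 12.3, 16.9, 13.2 and 13.7% in lesions at 1 month, and to 7.33, 7.73, 6.90 and 7.66% and 8.18, 36.2, 16.2 and 19.0% at 3 months. Lesion library 1, the lowest in CPM, was also the lowest by this measure at 3 months, just above the eutopic range. Itgal spanned 5.60 to 7.72% in eutopic uterus and 6.80 to 7.81% in lesions at 1 month, and 5.72 to 6.85% and 5.22 to 7.15% at 3 months, so the groups overlapped. Itgax spanned 4.59 to 5.69% and 5.08 to 8.14% at 1 month and overlapped too. At 3 months its eutopic range was 2.59 to 4.52%, and lesions 1 to 4 stood at 3.09, 36.7, 8.76 and 10.8%. Lesion library 1 alone lay within that range, and the other lesions lay above it. Itgad lay below eutopic uterus at 1 month, at 0.0550 to 0.117% against 0.233 to 0.449%, as did 80.9% of all genes. Itgae lay below at 3 months, at 0.467 to 1.40% against 1.76 to 2.05%, as did 8.63% of all genes. These ratios are descriptions and were not tested.

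**Figure D3:**
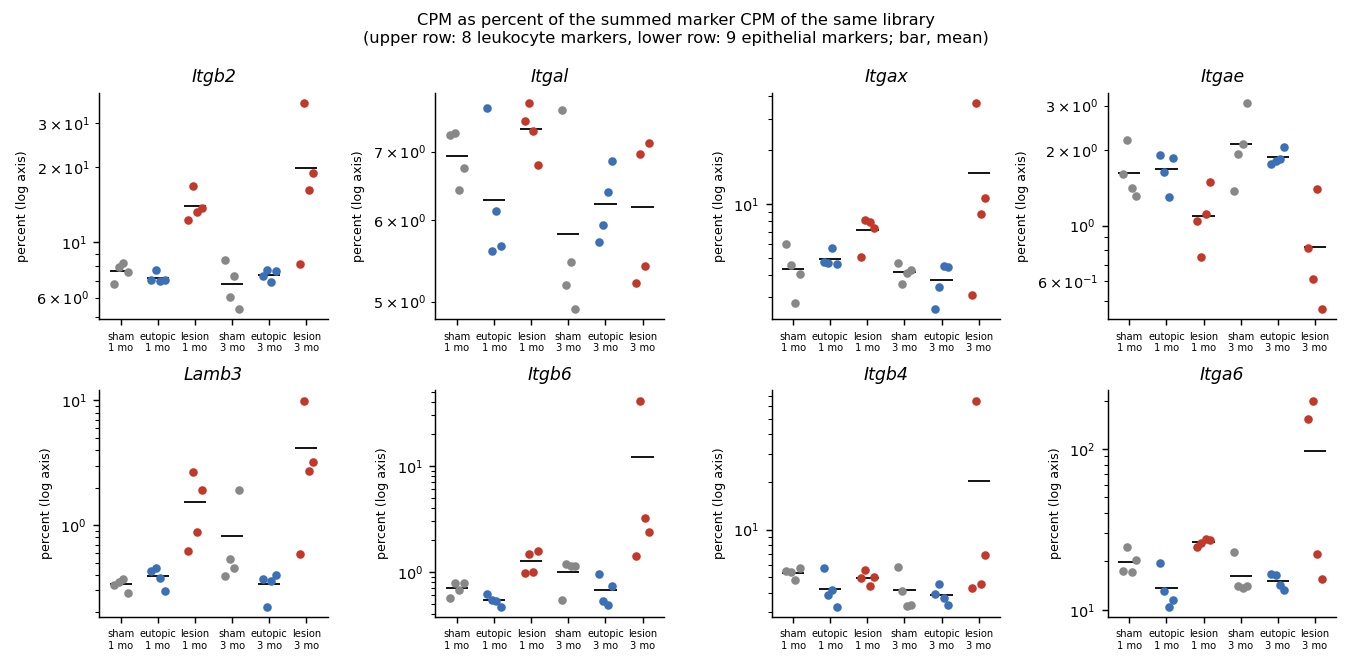
CPM of 4 leukocyte integrin genes as percent of the summed CPM of 8 leukocyte markers (upper row) and of 4 epithelial genes as percent of the summed CPM of 9 epithelial markers (lower row), on a log axis (y), by library and group (x). Points are libraries and bars are group means: lesions lie above eutopic uterus at both times for Itgb2, Lamb3 and Itgb6.

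The promoters of 4 of the leukocyte integrin genes called higher at both times are printed so that their sequences can be compared. Promoter entries of RefSeq (GRCm38.p6) matched 29 of the 44 genes, and the 250 bases upstream of the start were searched on both strands. Of 5 patterns, GAGGAA (the purine-rich core bound by PU.1) was found in 13 of the 29, against 23.1% of 27018 promoters of the table. TGTGGT (RUNX) was found in 1, against 14.2%, TGANTCA (AP-1) in 2, against 6.85%, GGGCGG (Sp1) in 9, against 33.0%, and TATAAA in 2, against 13.0%. Of the 13 genes with GAGGAA, Itgam was the only leukocyte integrin gene, and the rest were laminin, tenascin and other integrin genes. How many leukocyte integrin genes were among the 29 searched is not given here. The windows are chr7:128129300-128129549, plus strand for Itgax, chr7:128062390-128062639, plus strand for Itgam, chr2:79255176-79255425, plus strand for Itga4 and chr15:102231936-102232185, minus strand for Itgb7. They are written 5′ to 3′ on the gene's strand, and capitals mark a match to a pattern or its reverse complement. No 2 patterns overlap in them.
Itgax: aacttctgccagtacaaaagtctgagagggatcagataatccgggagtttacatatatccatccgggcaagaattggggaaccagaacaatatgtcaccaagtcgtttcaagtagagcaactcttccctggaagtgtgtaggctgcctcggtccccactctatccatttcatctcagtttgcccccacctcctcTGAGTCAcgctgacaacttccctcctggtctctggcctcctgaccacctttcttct
Itgam: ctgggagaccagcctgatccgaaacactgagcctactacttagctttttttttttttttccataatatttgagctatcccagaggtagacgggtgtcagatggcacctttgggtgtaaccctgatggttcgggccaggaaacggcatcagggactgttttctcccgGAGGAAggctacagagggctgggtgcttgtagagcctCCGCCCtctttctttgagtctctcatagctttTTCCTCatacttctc
Itga4: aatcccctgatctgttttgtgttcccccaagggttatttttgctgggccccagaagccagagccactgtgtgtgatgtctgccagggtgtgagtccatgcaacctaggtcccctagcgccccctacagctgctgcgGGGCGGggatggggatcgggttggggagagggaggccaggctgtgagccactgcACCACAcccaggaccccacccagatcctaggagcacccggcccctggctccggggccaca
Itgb7: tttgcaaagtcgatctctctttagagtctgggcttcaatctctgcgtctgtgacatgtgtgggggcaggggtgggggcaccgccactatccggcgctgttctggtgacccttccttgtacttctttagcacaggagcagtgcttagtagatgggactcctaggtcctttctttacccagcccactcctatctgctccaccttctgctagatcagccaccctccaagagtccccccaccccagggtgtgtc
Itgax holds TGANTCA, matched on both strands, from -56 to -50, with -1 the base before the start. Itgam holds GAGGAA at -84 to -79 and, on the other strand, at -15 to -10, with GGGCGG on the other strand at -47 to -42. Itga4 holds GGGCGG at -114 to -109 and TGTGGT on the other strand at -60 to -55, and Itgb7 holds none of the 5. A match is a stretch of letters, not a measured binding site.

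Itga2b and Itgb3 form the fibrinogen receptor of platelets, and Itgb3 also pairs with Itgav. Itga2b measured 6.13, 6.66, 7.12 and 5.67 CPM in eutopic uterus and 2.19, 4.57, 3.95 and 6.51 CPM in lesions at 3 months. It was called lower (log2 fold change -0.57 ± 0.22, adjusted p = 0.0463) with groups that overlapped, and the call was lost in 7 of the 8 fits without 1 library, in the fit of compared groups alone (adjusted p = 0.27) and without lesions 1 and 2 (-0.32, adjusted p = 0.219). Of the 6 platelet and megakaryocyte markers 2 could be tested, and both were called higher at 3 months, summing with the other 4 to 3.62 to 4.05 CPM in eutopic uterus and 3.11, 39.9, 48.0 and 24.8 CPM in lesions. Itgb3 measured 68.4, 54.4, 54.3 and 52.4 CPM in eutopic uterus and 62.0, 41.1, 58.4 and 53.1 CPM in lesions at 1 month, with groups that overlapped (-0.10 ± 0.20, adjusted p = 0.762). At 3 months it measured 79.6, 58.4, 57.3 and 54.0 CPM in eutopic uterus and 123, 93.4, 63.6 and 64.5 CPM in lesions, and it missed the threshold (0.47 ± 0.20, adjusted p = 0.0656). It passed it by DESeq2 (adjusted p = 0.0411), while without lesions 1 and 2 the value was 0.01.

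Among the alpha subunits that bind the RGD motif and related sites of matrix glycoproteins, 3 of 4 were called higher at both times. The shares called higher over all genes were 12.0% at 1 month and 23.4% at 3 months. Itgav, which binds vitronectin and activates latent TGF-beta, measured 127, 84.1, 86.9 and 89.1 CPM in eutopic uterus and 165, 150.3, 164 and 177 CPM in lesions at 1 month, and 138, 83.3, 101 and 86.6 CPM in eutopic uterus and 253, 161, 191 and 149.7 CPM in lesions at 3 months. All lesions lay above all eutopic libraries at both times, by 0.76 ± 0.19 (adjusted p = 0.00945) and 0.88 ± 0.19 (adjusted p = 0.00115). Itga9, a receptor for tenascin-C and osteopontin, measured 77.5, 51.6, 54.3 and 64.8 CPM in eutopic uterus and 142, 135, 129 and 116 CPM in lesions at 1 month, and 82.5, 55.2, 64.5 and 65.0 CPM in eutopic uterus and 356, 81.2, 111 and 161 CPM in lesions at 3 months. It was higher by 1.07 ± 0.30 (adjusted p = 0.0165) and 1.41 ± 0.30 (adjusted p = 0.00107). At 1 month the call was lost without eutopic library 2 or 3 (adjusted p = 0.0583 and 0.0525), and at 3 months lesion library 1 stood highest and the value was 0.82 without it. Lesion library 2 lay within the eutopic range at 3 months.

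Itga8, the receptor for nephronectin found on smooth muscle and fibroblasts, measured 31.0, 19.7, 20.9 and 16.8 CPM in eutopic uterus and 64.5, 77.8, 70.7 and 64.1 CPM in lesions at 1 month. No lesion overlapped the eutopic range, and the log2 fold change was 1.65 ± 0.39 (adjusted p = 0.00657). At 3 months the values were 44.8, 24.2, 23.9 and 20.2 CPM in eutopic uterus and 40.4, 18.8, 126 and 52.8 CPM in lesions, with groups that overlapped, and the call (1.07 ± 0.38, adjusted p = 0.0291) was lost without eutopic library 2, 3 or 4 or lesion library 3, the last of which left 0.40 (adjusted p = 0.306). Without lesions 1 and 2 it was 1.64 (adjusted p = 0.000404), and in the fit of compared groups alone it was not called (adjusted p = 0.193). Itga5, the classical fibronectin receptor subunit, was not called: it ran from 121 to 178 CPM in eutopic uterus and from 146 to 222 CPM in lesions at 1 month, and from 114 to 214 and 69.2 to 248 CPM at 3 months (0.24 ± 0.26 and 0.09 ± 0.26, adjusted p = 0.548 and 0.801).

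Collagen-binding alpha subunits were called higher in 1 of 4 cases at 1 month and 2 of 4 at 3 months. Among all genes 12.0% and 23.4% were called higher at these times, and whether the 4 differ from that was not tested. Itga2, the collagen receptor of epithelium and platelets, measured 14.7, 12.4, 10.2 and 9.82 CPM in eutopic uterus and 21.9, 49.3, 33.4 and 49.5 CPM in lesions at 1 month, and 18.4, 11.4, 12.8 and 7.71 CPM in eutopic uterus and 56.3, 14, 70.2 and 51.1 CPM in lesions at 3 months. At 3 months 3 lesions lay above the eutopic range and lesion library 2 within it. The log2 fold changes were 1.71 ± 0.49 (adjusted p = 0.0189) and 1.93 ± 0.49 (adjusted p = 0.00402), and the former missed the threshold without eutopic library 3 or 4 or lesion 2 or 4 (adjusted p between 0.055 and 0.0578). Itga11, the fibrillar collagen receptor of fibroblasts, measured 7.20, 4.61, 4.55 and 2.90 CPM in eutopic uterus and 10.1, 7.38, 5.76 and 7.63 CPM in lesions at 1 month (0.68 ± 0.36, adjusted p = 0.181). At 3 months it measured 3.84, 2.99, 5.62 and 2.54 CPM in eutopic uterus and 29.9, 25.8, 10.5 and 9.24 CPM in lesions, with all lesions above all eutopic libraries (2.33 ± 0.37, adjusted p = 9.91e-05). Lesions 1 and 2 stood highest, and without them the value was 1.37 (adjusted p = 0.00252). Itga1 and Itga10 were not called at either time, with log2 fold changes between 0.19 (Itga10, 1 month) and 0.58 (Itga1, 1 month).

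**Figure D4:**
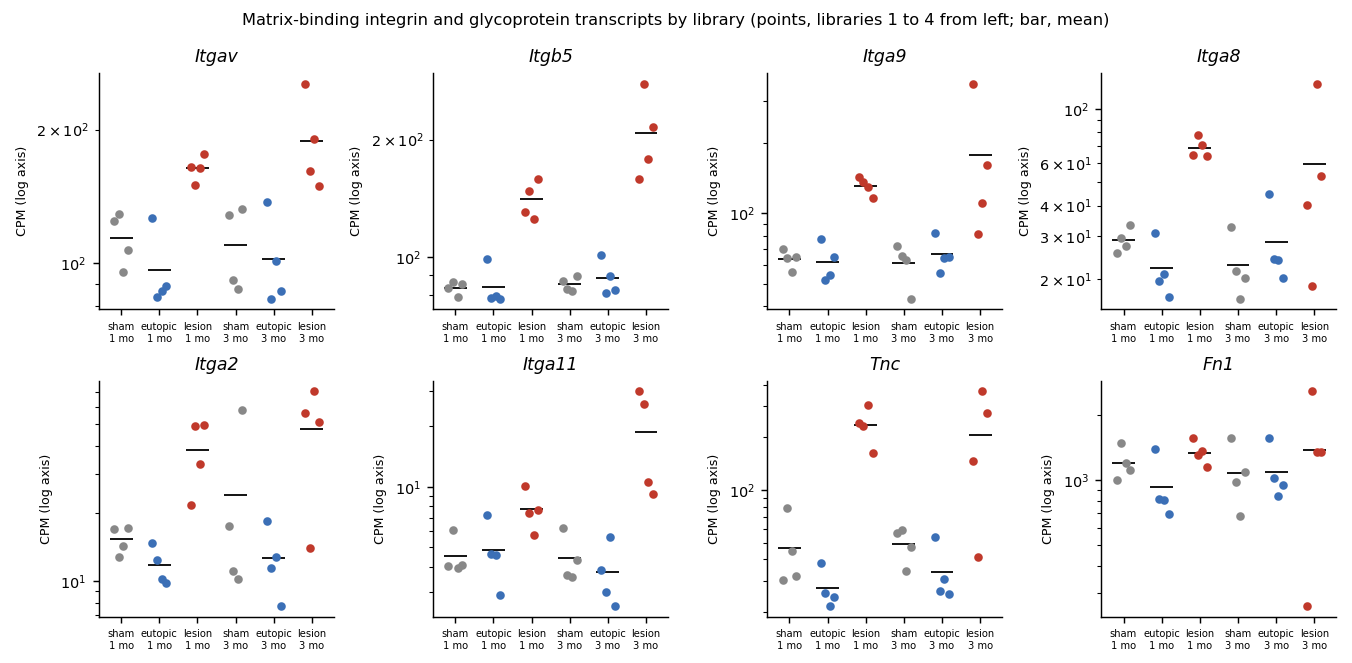
CPM on a log axis (y) of 6 integrin genes that bind matrix and of Tnc and Fn1, in each library of the 6 groups (x). Points are libraries 1 to 4 from left to right and bars are group means: Itgav, Itgb5 and Itga11 lesions lie above eutopic uterus at 3 months. At that time lesion library 2 lies within the eutopic range for Itga2, Itga9 and Tnc. For Itga8 lesion library 1 lies within that range and library 2 below it.

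Of the 3 laminin-binding alpha subunits, 2 were called higher at 1 month and none at 3 months, beside 12.0% and 23.4% of all genes. Itga6, which pairs with Itgb1 and, in the hemidesmosome, with Itgb4, measured 178, 149.7, 156 and 184 CPM in eutopic uterus and 232, 256, 294 and 245 CPM in lesions at 1 month. The lesions lay above all eutopic libraries, by 0.62 ± 0.21 (adjusted p = 0.0429). Itga3, the receptor for epithelial laminins, measured 47.2, 44.7, 48.8 and 53.7 CPM in eutopic uterus and 66.4, 75.5, 75.6 and 72.6 CPM in lesions, also without overlap (0.58 ± 0.20, adjusted p = 0.0484). Both calls sat near the threshold: without any 1 of the 8 libraries they were lost, with adjusted p-values of 0.0533 to 0.121 for Itga6 and 0.062 to 0.129 for Itga3. At 3 months Itga6 measured 201, 171, 183 and 169.9 CPM in eutopic uterus and 213, 95.3, 230.0 and 114 CPM in lesions (-0.15 ± 0.21, adjusted p = 0.594). Itga3 ran from 43.7 to 60.0 CPM and from 26.4 to 75.8 CPM (-0.07 ± 0.20, adjusted p = 0.82). Lesion library 2, which had the fewest epithelial markers, was the lowest for both genes, whereas lesion library 1, with the next fewest, lay above every eutopic library for Itga6 and within the eutopic range for Itga3. Itga7, the laminin receptor of muscle, was not called at either time, and its highest lesion at 3 months was library 2 at 51.3 CPM and its lowest library 1 at 11.4 CPM.

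Of the beta subunits outside the leukocyte and platelet types, Itgb5 was the gene called with the smallest adjusted p at 3 months. Itgb5, the vitronectin receptor partner of Itgav, measured 98.9, 78.6, 79.5 and 78.1 CPM in eutopic uterus and 130.4, 148, 125 and 158 CPM in lesions at 1 month, and 101, 80.9, 89.2 and 82.0 CPM in eutopic uterus and 158, 278, 179 and 216 CPM in lesions at 3 months. Every lesion exceeded every eutopic library at both times, by 0.74 ± 0.13 (adjusted p = 0.00152) and 1.23 ± 0.14 (adjusted p = 3.27e-06). Itgb1, the common partner, measured 806, 700.2, 773 and 751 CPM in eutopic uterus and 965, 885, 1030.2 and 940.5 CPM in lesions at 1 month. The groups did not overlap, but the difference of 0.33 ± 0.12 (adjusted p = 0.0443) was small and was lost without any 1 of the 8 libraries (adjusted p from 0.0505 to 0.137). At 3 months Itgb1 measured 915, 711, 778 and 633 CPM in eutopic uterus and 762, 847, 964 and 1029.8 CPM in lesions and was not called (0.25 ± 0.11, adjusted p = 0.0922), although it passed the threshold by DESeq2 and without lesions 1 and 2 (adjusted p = 0.0321 and 0.0221).

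Itgb8, which with Itgav activates latent TGF-beta, was called lower at 3 months. It measured 53.4, 44.6, 68.0 and 56.9 CPM in eutopic uterus and 10.4, 13.0, 48.4 and 15.5 CPM in lesions, with lesion library 3 within the eutopic range (-1.35 ± 0.43, adjusted p = 0.0171). The call was lost without lesion library 2 or 4 (adjusted p = 0.0566 and 0.0524) and without lesions 1 and 2 together (-0.83, adjusted p = 0.175). The difference was -2.11 without lesion library 3. Itgb4, the hemidesmosome subunit of epithelium, was not called, and its lesions at 3 months measured 6.01, 31.1, 47.0 and 50.8 CPM against 43.2 to 47.7 CPM in eutopic uterus. Itgb6, the epithelial partner of Itgav, was not called either, at 5.70, 6.14, 8.0 and 7.54 CPM in eutopic uterus and 9.35, 14.7, 10.7 and 14 CPM in lesions at 1 month (0.83 ± 0.51, adjusted p = 0.25) and 11.5, 5.61, 6.31 and 9.45 CPM in eutopic uterus and 1.98, 19.6, 33.3 and 17.6 CPM in lesions at 3 months (1.14 ± 0.51, adjusted p = 0.0801).

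Levels of different genes were compared per kilobase of exon. In eutopic uterus at 1 month Itgb1 had the highest level of the beta subunits, 186 ± 10.9 CPM per kb (SD, n = 4), followed by Itgb5 at 23.6 ± 2.84 and Itgb3 at 9.72 ± 1.26. Itgb2 stood at 9.50 ± 0.833 CPM per kb there, next to Itgb3, and their libraries overlapped. In lesions Itgb2 came next after Itgb1 by mean, at 77.0 ± 39.7 CPM per kb at 1 month and 159 ± 142 at 3 months. Itgb1 stood at 234 ± 14.8 and 221 ± 29.3, and their libraries overlapped at 3 months. Itgb5 followed at 39.5 ± 4.37 and 58.4 ± 14.8, and its libraries overlapped those of Itgb2 at both times. Among alpha subunits of eutopic uterus at 1 month, Itga5 led at 30.2 ± 4.70 CPM per kb, before Itga6 at 18.5 ± 1.85. Among alpha subunits of lesions at 3 months Itgax had the highest mean, 80.3 ± 93.2 CPM per kb, with an SD above that mean and libraries that overlapped those of Itga5 at 33.4 ± 15.3. Of the laminin chains Lamc1 led in eutopic uterus at 1 month with 46.5 ± 9.14 CPM per kb, then Lamb1 with 33.6 ± 7.53 and Lamb2 with 32.2 ± 4.39, and neighbours in this order overlapped. In lesions at 3 months Lamb2 stood at 31.8 ± 5.49 CPM per kb, overlapping Lamc1 at 33.4 ± 2.79, with Lamb1 next at 17.7 ± 10.4. Of the glycoproteins Fn1 led with 79.3 ± 26.6 CPM per kb in eutopic uterus at 1 month, then Postn at 60.2 ± 10.8, with overlapping libraries.

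None of the 11 laminin chain genes was called at 1 month. In edgeR 2 of them had an unadjusted p under 0.05, as did 7845 of the 22249 genes tested. At 3 months 1 was called higher and 3 lower, where 23.4% of all genes were called higher and 17.1% lower. Whether the chains as a set differ from these shares was not tested. DESeq2 called none of the 11 at 1 month, and limma voom 2 higher and 3 lower. The called falls were Lama2, Lamb1 and Lamc1, the 3 chains of the laminin of muscle. Lamb1 measured 430.4, 292, 329 and 282 CPM in eutopic uterus and 324, 119, 161 and 96.8 CPM in lesions at 3 months. Lesions 2 to 4 lay below the eutopic range and lesion library 1 within it (-0.93 ± 0.28, adjusted p = 0.0131). Lamc1, the usual gamma chain, measured 539.7, 414, 385 and 307 CPM in eutopic uterus and 306, 275, 275 and 249.9 CPM in lesions (-0.57 ± 0.19, adjusted p = 0.0189). All 4 lesions lay below the eutopic libraries, the nearest by a narrow margin. Lama2, the alpha chain of the muscle basement membrane, measured 165, 129, 146 and 124 CPM in eutopic uterus and 104, 61.7, 46.5 and 26.9 CPM in lesions, again without overlap (-1.24 ± 0.33, adjusted p = 0.0055). Without lesions 1 and 2 all 3 falls were larger, at -1.40 for Lamb1, -0.68 for Lamc1 and -1.97 for Lama2 (adjusted p = 0.000431, 0.029 and 0.000257).

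In the fit of compared groups alone none of the 3 falls was called (adjusted p = 0.119 for Lamb1, 0.0703 for Lamc1 and 0.0528 for Lama2). Lamb1 missed the threshold without lesion library 2 (adjusted p = 0.0501), and Lamc1 without eutopic library 1 or lesion library 4 (adjusted p = 0.0842 and 0.0501). Smooth muscle markers, whose cells carry Lama2, fell in 6 of 7 cases at 3 months, from a sum of 7243 to 14675 CPM in eutopic uterus to 2189, 2307, 6483 and 7119.8 CPM in lesions, and none was at 0. Stromal markers were called lower in 3 of 7 cases and endothelial markers in 2 of 6, where 17.1% of all genes were. The part of these cells in the laminin values was not tested.

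Lama1, an alpha chain that adult tissues carry only in few basement membranes, was the 1 laminin called higher at 3 months. It measured 2.58, 1.70, 1.39 and 1.65 CPM in eutopic uterus and 221, 7.27, 8.18 and 4.04 CPM in lesions, with all lesions above all eutopic libraries and library 1, which holds the ovarian markers, far above the rest. The log2 fold change was 5.04 ± 0.94 (adjusted p = 0.000345) with library 1 and 1.83 (adjusted p = 0.000105) without it. At 1 month the values were 1.89, 1.37, 1.34 and 1.29 CPM in eutopic uterus and 3.67, 2.88, 4.86 and 4.87 CPM in lesions, also without overlap, but the gene was not called (1.46 ± 0.82, adjusted p = 0.208). Lama4 and Lamb2, chains of vascular and smooth muscle basement membranes, were not called at either time and had log2 fold changes between -0.35 (Lama4, 3 months) and -0.01 (Lamb2, 3 months). Lama5, an alpha chain of epithelial and vascular basement membranes, ran from 99.7 to 135 CPM in eutopic uterus and from 147 to 181 CPM in lesions at 1 month, without overlap and without a call (0.44 ± 0.31, adjusted p = 0.332).

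Lama3 and Lamb3 encode chains of the laminin beneath epithelial cells that anchors the hemidesmosome, and neither was called at either time. Lamb3 measured 3.94, 5.17, 5.65 and 4.74 CPM in eutopic uterus and 5.95, 26.4, 9.40 and 17.4 CPM in lesions at 1 month, all lesions above (1.60 ± 0.77, adjusted p = 0.143). At 3 months its lesions measured 0.824, 4.75, 28.2 and 23.7 CPM and straddled the eutopic range of 2.33 to 5.10 CPM (1.80 ± 0.78, adjusted p = 0.0698). The lowest lesion, library 1, held 139.5 CPM of the epithelial markers. Lama3 ran from 21.5 to 43.0 CPM in eutopic uterus and from 12.3 to 31.3 CPM in lesions at 3 months (-0.62 ± 0.28, adjusted p = 0.0821). Lamc3 measured 58.5, 33.2, 58.6 and 42.5 CPM in eutopic uterus and 23.3, 10.9, 14.1 and 15.9 CPM in lesions at 1 month, all lesions below, and was not called (-1.59 ± 0.69, adjusted p = 0.103). At 3 months it ran from 22.0 to 41.4 CPM in eutopic uterus and measured 77.8, 20.9, 3.34 and 3.97 CPM in lesions. Lesion library 1 lay above the eutopic range and the other lesions below it (-0.13 ± 0.67, edgeR adjusted p = 0.893).

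**Figure D5:**
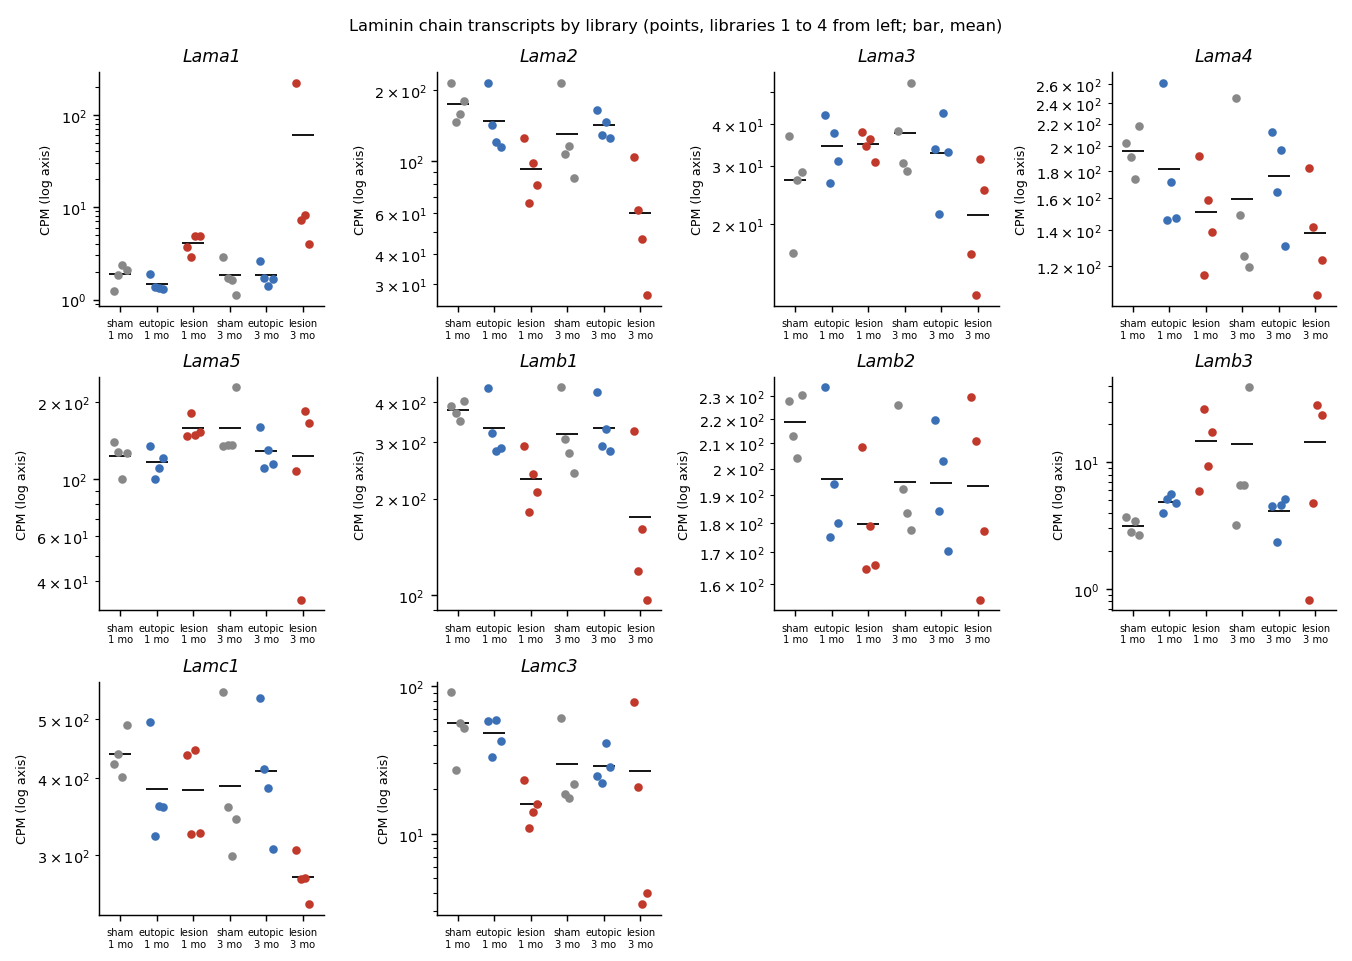
CPM on a log axis (y) of 10 laminin chain genes in each library of the 6 groups (x). Points are libraries 1 to 4 from left to right and bars are group means: at 3 months lesions lie below eutopic uterus for Lama2 and Lamc1, and Lama1 lies above it, with lesion library 1 at 221 CPM.

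Set against the summed epithelial markers, 3 of 5 epithelial genes had lesions above eutopic uterus at 1 month and 2 of 5 at 3 months, and none had lesions below. Over all genes the shares below were 3.75% and 1.11%, and the shares above 19.7% and 35.1%, which puts the count at 3 months, 2 of 5, near the background. Lamb3 spanned 0.297 to 0.455% in eutopic uterus and 0.625 to 2.67% in lesions at 1 month, and 0.223 to 0.396% and 0.590 to 9.95% at 3 months. Itgb6 spanned 0.472 to 0.621% and 0.983 to 1.56% at 1 month, and 0.491 to 0.959% and 1.42 to 41.1% at 3 months, where lesion library 2, with the smallest marker sum, was the highest. Itga6 lay above at 1 month only, at 24.4 to 27.7% against 10.5 to 19.4%, and Itgb4 and Lama3 overlapped at both times.

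Of the 7 adhesive glycoproteins, tenascin-C was the 1 called higher at both times. Tnc, expressed in development and again at sites of injury, measured 38.2, 25.6, 21.7 and 24.3 CPM in eutopic uterus and 241, 231, 308 and 163 CPM in lesions at 1 month, and 53.6, 26.4, 30.9 and 25.3 CPM in eutopic uterus and 147, 41.1, 366 and 275 CPM in lesions at 3 months. At 1 month all lesions lay above all eutopic libraries (3.10 ± 0.48, adjusted p = 0.000586), a 8.59-fold difference. At 3 months lesion library 2 lay within the eutopic range (2.60 ± 0.47, adjusted p = 0.000254), and the value was 3.21 without lesions 1 and 2. Sham libraries measured 30.5, 79.0, 44.9 and 32.0 CPM at 1 month and 56.3, 59.0, 34.4 and 47.3 CPM at 3 months. The Tnc promoter (chr4:64047016-64047265, minus strand) is printed because no other glycoprotein of the set was called at both times, with capitals for GGGCGG at -167 to -162 and TATAAA at -126 to -121.
Tnc: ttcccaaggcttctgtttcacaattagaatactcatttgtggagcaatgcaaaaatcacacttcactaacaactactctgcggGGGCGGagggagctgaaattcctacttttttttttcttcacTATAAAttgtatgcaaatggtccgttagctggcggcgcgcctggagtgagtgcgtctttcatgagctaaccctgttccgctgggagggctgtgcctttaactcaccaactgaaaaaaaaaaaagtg
No other of the 5 patterns was found in these 250 bases.

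Fibronectin, vitronectin and periostin were not called. Fn1 measured 1385, 812, 809.5 and 697 CPM in eutopic uterus and 1562, 1301, 1357 and 1143 CPM in lesions at 1 month (0.53 ± 0.41, adjusted p = 0.368), and 1562, 1025, 845 and 944 CPM in eutopic uterus and 260.0, 2577, 1354 and 1347 CPM in lesions at 3 months (0.34 ± 0.41, adjusted p = 0.532). Lesion libraries 1 and 2 at 3 months were the lowest and the highest of all 24 libraries, and without library 2 the log2 fold change was -0.15. Postn, a matrix protein of fibroblasts, measured 602, 444, 608 and 442 CPM in eutopic uterus and 597, 450.4, 615 and 308 CPM in lesions at 1 month, and 775, 616, 626 and 351 CPM in eutopic uterus and 74.7, 344, 544 and 513 CPM in lesions at 3 months. Its groups overlapped at both times (-0.09 ± 0.41 and -0.68 ± 0.41, adjusted p = 0.896 and 0.193). Vtn, made mainly by liver, measured 12.7, 10.1, 9.90 and 9.91 CPM in eutopic uterus and 7.58, 19.8, 5.24 and 6.04 CPM in lesions at 1 month, where lesion library 2, which holds the liver and pancreas markers, was the highest. Without the 3 lesions set apart it was called lower at both times, with log2 fold changes of -0.78 (adjusted p = 0.016) at 1 month and -0.92 (adjusted p = 0.00832) at 3 months, beside -0.14 ± 0.39 (adjusted p = 0.824) and -0.69 ± 0.39 (adjusted p = 0.165) with them. At 3 months it measured 9.85, 10.4, 9.54 and 8.16 CPM in eutopic uterus and 2.43, 11.0, 6.12 and 3.89 CPM in lesions. Lesion library 2 of that time, the highest for Vtn, held 12.9 CPM of the liver and pancreas markers. The part of liver tissue in the Vtn values was not tested.

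Of the remaining tenascins, Tnn was called higher at 3 months on few counts, and Tnr and Tnxb were not called. Tnn, a tenascin of bone, gave 3, 4, 5 and 0 counts in the eutopic libraries and 9, 30, 21 and 46 counts in the lesions at 3 months. It was called higher (3.22 ± 0.69, adjusted p = 0.00108), but it was too low to be tested in the fit of compared groups alone, and the fitted fold rests on eutopic libraries of 5 counts or fewer. Tnr, a glycoprotein of nervous tissue, gave 8, 10, 5 and 6 counts in eutopic libraries and 86, 5, 6 and 10 counts in lesions, with lesion library 1 far above the rest, and was not called (1.87 ± 0.76, adjusted p = 0.0557). Tnxb, a connective tissue glycoprotein, ran from 161 to 248 CPM in eutopic uterus and from 135 to 254 CPM in lesions at 3 months, with lesion library 2 the highest, and was not called at either time.

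Partners of these genes were read from 3 further lists. Of 35 other integrin ligands and matricellular genes 31 were tested, 8 were called higher and 1 lower at 1 month, and 14 higher and 4 lower at 3 months (median log2 fold changes 0.52 and 0.54). Over all genes 12.0% were called higher and 8.76% lower at 1 month, and 23.4% and 17.1% at 3 months, and the share of this list called lower was under these at both times. Vcam1, the endothelial ligand of Itga4, was higher by 2.82 ± 0.43 and 3.50 ± 0.44 (adjusted p = 0.00058 and 1.28e-05). Spp1, which encodes osteopontin, an Itgav and Itga9 ligand, was higher by 3.78 ± 0.97 and 5.72 ± 1.06 (adjusted p = 0.0108 and 0.000338). Thbs4, a thrombospondin of tendon and muscle, was higher by 3.60 ± 0.37 and 4.11 ± 0.38 (adjusted p = 1.77e-05 and 6.56e-07). The called falls were Jam3 (-0.63 ± 0.17) at 1 month, lost without lesion library 2 or 4 (adjusted p = 0.0565 and 0.0534), and at 3 months Edil3 (-1.67 ± 0.47), Thbs3 (-1.28 ± 0.40), Jam3 (-0.78 ± 0.17) and Sparcl1 (-0.70 ± 0.22). Without the 3 lesions set apart the counts were 12 higher and 2 lower at 1 month and 15 higher and 6 lower at 3 months.

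Of 30 genes of the core adhesome, the proteins that activate integrins and tie them to actin, 4 were called higher at 1 month, and 8 higher and 6 lower at 3 months (median log2 fold changes 0.08 and -0.10). These shares are near those over all genes, 12.0% higher at 1 month and 23.4% higher and 17.1% lower at 3 months. Of the 4 at 1 month, 3 are named here: Fermt3, the kindlin of blood cells (1.97 ± 0.54, adjusted p = 0.0146, or 0.0525 without lesion library 2), Parvg (2.08 ± 0.50, adjusted p = 0.00809) and Lpxn (2.0 ± 0.50, adjusted p = 0.00967). At 3 months the largest rise was that of Itgb1bp2, which encodes melusin of striated muscle (5.56 ± 0.86, adjusted p = 7.33e-05, and 4.45 without lesion library 2), beside the skeletal muscle markers, of which 8 of 8 were called higher. Parvb was higher by 2.52 ± 0.48, or 1.23 without lesion library 1, and Fermt3 by 2.53 ± 0.55. Lims2, a partner of integrin-linked kinase, fell (-0.92 ± 0.21, adjusted p = 0.00189, or 0.0555 in the fit of compared groups alone). The falls of Flna (-0.74 ± 0.28, adjusted p = 0.0405) and Parva (-0.52 ± 0.20, adjusted p = 0.0428) were lost without lesions 1 and 2 (adjusted p = 0.362 and 0.411), where 3 genes of the list were called lower in place of 6.

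Of 17 basement membrane partners and laminin receptors outside the integrins, 16 were tested. At 1 month 1 was called higher and none lower, and at 3 months 2 were called higher and 4 lower (median log2 fold changes 0.27 and 0.05). The shares called higher were under those over all genes (12.0% and 23.4%), and the share called lower at 3 months was above that over all genes (17.1%). Nid1, which links laminin to collagen IV, fell at 3 months (-1.30 ± 0.26, adjusted p = 0.000539), as did Npnt, the ligand of Itga8 (-1.91 ± 0.30, adjusted p = 8.30e-05). Both were called in each alternative fit run, those without 1 library included. Egflam, which encodes pikachurin, was called lower (-1.06 ± 0.36, adjusted p = 0.0245), a call lost without lesion library 2, 3 or 4, with a value of -1.73 without library 1. Frem1, an epithelial basement membrane protein, was higher by 1.52 ± 0.50 (adjusted p = 0.0378) at 1 month, a call lost without any 1 library, and by 1.47 ± 0.50 (adjusted p = 0.0244) at 3 months. The call at 3 months was lost without lesion library 1 (0.78, adjusted p = 0.167) or 3, or eutopic library 1 or 2 (adjusted p = 0.0577, 0.0501 and 0.0574). Ntn4 was higher by 0.48 ± 0.18 (adjusted p = 0.0417), 0.21 without lesions 1 and 2 (adjusted p = 0.359), and the call was also lost without lesion library 1 or any 1 eutopic library.

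No gene of the 44 was called in the test of whether the lesion difference changed from 1 to 3 months, where 0.454% of all genes were called up and 0.315% down. In edgeR 7 of the 44 had an unadjusted p under 0.05, as did 3297 of the 22249 genes tested. DESeq2 called 1 gene, Itga11, and limma voom none. The smallest p-values were those of Itga11, with a change of 1.65 ± 0.51 (adjusted p = 0.119, or 0.0316 by DESeq2), Lama1 with 3.57 ± 1.17 (adjusted p = 0.147) and Itgb5 with 0.49 ± 0.19 (adjusted p = 0.221). Without lesions 1 and 2 at 3 months the changes were 0.72, 0.27 and 0.41.

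Between lesions of 3 months and of 1 month, 4 genes were called higher and 1 lower, where 6.52% and 4.43% of all genes were. The higher genes were Itga11 (1.29 ± 0.36, adjusted p = 0.0257), Itgb3 (0.68 ± 0.20, adjusted p = 0.0317), Itgb5 (0.56 ± 0.13, adjusted p = 0.0103) and Lama1 (3.88 ± 0.88, adjusted p = 0.00851), and the lower gene was Itgb8 (-1.38 ± 0.43, adjusted p = 0.0452). Itgb3 was the 1 of the 5 whose groups did not overlap, and the share of all genes without overlap was not counted here. None of the 5 was called in a fit of these 2 groups alone, with adjusted p-values between 0.295 and 0.332. Without lesions 1 and 2 at 3 months Itgb5 was still called (0.47, adjusted p = 0.0156), and Lama1 stood at 0.57, Itga11 at 0.34, Itgb3 at 0.24 and Itgb8 at -0.85. Lama1 was 0.67 (adjusted p = 0.15) without lesion library 1 alone.

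Between eutopic and sham uterus no call was made among the 42 genes tested there (Tnn and Tnr were too low). At 1 month no gene of the 42 was called by edgeR, where 0.00943% of 21208 genes were called higher and 0.0% lower. The unadjusted p of edgeR was under 0.05 for 2 of the 42, and for 1020 of the 21208 genes. DESeq2 and limma voom also called none. Tnc (-0.76 ± 0.31) and Itga8 (-0.39 ± 0.25) both had adjusted p = 0.876. Lamb3 had all eutopic libraries above all sham libraries, at 3.94 to 5.65 against 2.65 to 3.73 CPM. How many of all genes separated in this way was not counted. Tnc measured 30.5, 79.0, 44.9 and 32.0 CPM in sham and 38.2, 25.6, 21.7 and 24.3 CPM in eutopic uterus, with overlap.

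In the subfertile group of 3 months, again none of the 42 genes was called by edgeR, DESeq2 or limma voom, and 0.0% of all genes were called higher and 0.0% lower by edgeR. In edgeR 4 of the 42 had an unadjusted p under 0.05, as did 1012 of the 21208 genes tested. The smallest p-values were those of Lamb3 (-1.75 ± 0.56), Postn (0.71 ± 0.27) and Itgb6 (-0.85 ± 0.35), all with adjusted p = 0.992. Lamb3 measured 3.21, 6.58, 6.66 and 39.0 CPM in sham and 4.49, 2.33, 4.63 and 5.10 CPM in eutopic uterus, with overlap, and sham library 4 was far the highest. For Itgb4 the groups did not overlap, at 47.8 to 68.6 CPM in sham and 43.2 to 47.7 CPM in eutopic uterus (-0.22 ± 0.14, adjusted p = 0.992). The share of all genes without overlap was not counted for this comparison. Postn measured 434, 447, 338 and 225 CPM in sham and 775, 616, 626 and 351 CPM in eutopic uterus, with overlap. Itgb2, the leukocyte beta subunit, measured 37.3, 18.5, 25.7 and 13.9 CPM in sham and 22.9, 24.6, 22.0 and 39.7 CPM in eutopic uterus, with overlap (0.19 ± 0.24, adjusted p = 0.992). The change of the eutopic difference from 1 to 3 months was tested after the data were seen. It was called for none of the 42 genes in edgeR, DESeq2 or limma voom. Over all genes edgeR called 0.0% up and 0.00943% down. In edgeR 2 of the 42 had an unadjusted p under 0.05, as did 735 of the 21208 genes tested.

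Sham uterus at 3 months against 1 month gives the difference between times without endometriosis. None of the 42 genes was called by edgeR, where 0.0% of all genes were called higher and 0.0% lower. In edgeR 5 of the 42 had an unadjusted p under 0.05, as did 2274 of the 21208 genes tested. DESeq2 called 1 gene higher and limma voom 3 higher and 2 lower. Lamb3 measured 3.73, 2.80, 3.45 and 2.65 CPM at 1 month and 3.21, 6.58, 6.66 and 39.0 CPM at 3 months (2.14 ± 0.57, adjusted p = 0.295), and passed the threshold without sham library 1 of 3 months (2.47, adjusted p = 0.0334). Itgb6 measured 6.36, 6.25, 6.31 and 7.30 CPM at 1 month and 4.48, 14.5, 16.6 and 23.4 CPM at 3 months (1.17 ± 0.35, adjusted p = 0.302, or 0.0267 without that library). The 9 epithelial markers summed to 1113, 791, 937 and 934 CPM in sham libraries 1 to 4 at 1 month and 827, 1222, 1465 and 2044 CPM at 3 months, with library 4 of 3 months the highest and libraries 2 at 1 month and 1 at 3 months the lowest.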

How the data were processed

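Gene counts of 24 libraries were analysed as the authors deposited them: raw read counts per gene, whole numbers, not normalized. Per the submitters' processing notes, reads were demultiplexed with bcl2fastq 1.9.0 and aligned with STAR 2.7.9a to mm39. Overlapping and antisense genes may share reads, with the annotation release, the way of counting and the strandedness not given in the sources used here. Per the labels' protocols, total RNA was isolated with the RNeasy kit.

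Counts were fitted with edgeR 4.0.16 in R 4.3.3 (TMM scaling, filterByExpr, quasi-likelihood F-test on group means). Lesion comparisons used all 24 libraries (22249 genes, 44 of 44 members tested), and uterine comparisons the 16 sham and eutopic libraries (21208 genes, 42 of 44). Adjusted p-values are Benjamini-Hochberg over all genes tested. SE is the log2 fold change divided by the root of F. CPM used the TMM factors of the 24-library fit, and CPM per kb the union of exons in GENCODE M21 by gene ID (another build and annotation than the authors'). Alternatives were DESeq2 1.42.0, its size factors, no filter, limma 3.58.1 voom with sample weights, other libraries, the replicate number as a block, and each library left out. The code was tested on simulated data. The values of 1 gene of the set are not reported here. The members, roles and lists were chosen with earlier results of these data known. Named were all members by role, library by library those called at both times, up to 4 more called members of largest change at each time, and Itgb1, Itgav, Itgb3, Itgb2, Fn1, Vtn, Postn and Tnc; of the lists up to 3 called rises and falls of largest change.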

Additional observations from a re-analysis of the deposited data

Results flagged for a closer look

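In 263 groups of 4 libraries with no zero, Dixon's gap test on log2 CPM picked out 20 single libraries that lay far from the other 3 of their group, and chance alone picks about 1 in 20 groups. Eutopic library 1 at 1 month accounted for 7 of the 20, each time as the highest of its group: Itgal (32.9 CPM against 22.5 to 23.1 in the other 3), Itgb3 (68.4 CPM against 52.4 to 54.4), Itgav (127 CPM against 84.1 to 89.1), Itgb5 (98.9 CPM against 78.1 to 79.5), Itgb8 (108 CPM against 47.0 to 53.8), Lama1 (1.89 CPM against 1.29 to 1.37) and Vtn (12.7 CPM against 9.90 to 10.1).

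Lesion library 1 at 3 months was far below the other lesions for Itgam (3.13 CPM against 64.7 to 96.4) and Itgae (1.10 CPM against 16 to 24), and lesion library 2 at 3 months far above them for Tnxb (254 CPM against 135 to 149). Eutopic library 4 at 3 months was the highest for Itgae (10.6 CPM against 5.49 to 5.89) and the lowest for Itgb4 (43.2 CPM against 47.0 to 47.7), and eutopic library 2 at 3 months the lowest for Lamb3 (2.33 CPM against 4.49 to 5.10).

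Among sham libraries at 3 months, library 4 was the highest for Itgb4 (68.6 CPM against 47.8 to 50.2) and Lama5 (228 CPM against 135 to 136), and library 1 for Itga4 (49.1 CPM against 25.6 to 26.5). At 1 month sham library 3 was the lowest for Itga2b (5.52 CPM against 6.29 to 6.46) and Itga6 (161 CPM against 189.7 to 194), library 2 the highest for Itga11 (6.10 CPM against 3.91 to 4.06) and library 4 the highest for Itgb6 (7.30 CPM against 6.25 to 6.36).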

How the results depend on the processing

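Counts are genes of the set called higher and lower, beside 15 and 0 at 1 month, 16 and 5 at 3 months, 4 and 1 between lesion times, and 0 in the other comparisons. The shares of all genes called in the alternative fits are not given. Whether the set moved more than all genes did cannot be read from these counts. Limma voom gave 22 and 4 at 1 month, 1 and 1 between lesion times, and 3 and 2 between sham times. The fit of compared groups gave 21 and 4 at 1 month, 8 and 0 at 3 months, and 0 and 0 between lesion times. No filter gave 3 and 0 between lesion times. DESeq2 called 1 gene in the change of the lesion difference, 4 and 2 between lesion times and 1 between sham times, and gave Lama1 and Itgad no adjusted p at 3 months. Without lesions 1 and 2 of 3 months the counts between lesion times were 2 and 2. Without the 3 lesions set apart they were 18 and 2 at 1 month, 4 and 3 between lesion times, and 1 in the change. Leaving out 1 library gave 8 to 12 and 0 to 0 at 1 month, 14 to 20 and 3 to 6 at 3 months, 0 to 3 and 0 to 2 in the change, 2 to 5 and 0 to 5 between lesion times, 0 to 2 and 0 to 1 between sham times, and 0 in the eutopic comparisons. The sign of some genes turned when 1 lesion was left out: at 1 month Itgb3 (-0.18 to 0.000666), Vtn (-0.77 to 0.0530) and Postn (-0.22 to 0.0719), and at 3 months Itgad (-0.25 to 3.38) and Fn1 (-0.15 to 0.68). Of the values of single genes, leaving out 1 library kept direction and side of the threshold in 641, ended the call in 108 and brought one in 13. The causes of these changes were not tested. Depth limits Tnn, Tnr and Itgad, which had under 10 counts in some libraries.

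The replicate number as a block gave 15 and 1 at 1 month, 15 and 6 at 3 months, and 4 and 5 between lesion times. The block joined the same-numbered libraries of every group in a fit, both times included. It was therefore no test of a pairing of lesion and eutopic tissue within a mouse. Same-numbered lesion and eutopic libraries had deviations that correlated at 0.224, 0.130, 0.221 and 0.0797 at 1 month and 0.123, 0.082, -0.0223 and 0.391 at 3 months, with at least 1 pair under 0.1 at each time, so the numbers were not taken to pair the samples. At 1 month each of the 4 libraries correlated best with its own number, and a pairing there is possible. Under the block the calls of Itgad, Ntn4 and Frem1 at 3 months were lost (adjusted p = 0.126, 0.052 and 0.0536).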

Other observations

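Sham library 4 at 3 months, which had the largest sum of the 9 epithelial markers among the sham libraries (2044 CPM), was the highest sham library of that time for several genes of epithelial cells. Lamb3 stood at 39.0 CPM there, against 3.21, 6.58 and 6.66 CPM in the other 3. Itga2 stood at 57.8 CPM, against 17.6, 11.1 and 10.2 CPM, and Itgb6 at 23.4 CPM, against 4.48, 14.5 and 16.6 CPM. The marker sums of the other 3 were 827, 1222 and 1465 CPM.

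Of the 3 lists of partner genes, 1 gene was called in the change of the lesion difference from 1 to 3 months: Comp, a thrombospondin family member of cartilage and tendon (2.91 ± 0.58, edgeR adjusted p = 0.0326), named after its value was seen. Between lesions of 3 months and 1 month, 6 of the 31 other ligands tested were called higher and 2 lower, 3 of the 30 adhesome genes higher and none lower, and 1 of the 16 basement membrane partners higher and 2 lower, where 6.52% of all genes were called higher and 4.43% lower.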
